A study of Homo sapiens with 12 samples.

Results

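The proteins of the cytosolic ribosome are encoded by a large family of genes that are switched on together in growing cells. A total of 86 of them were followed here, 53 of the large (60S) subunit and 33 of the small (40S) subunit, out of 20708 genes on the array. They were chosen by gene symbol alone, as RPL or RPS followed by a number, with the paralogs that end in L, L1 or AL, the stalk proteins RPLP0, RPLP1 and RPLP2, and RPSA and FAU, and without pseudogenes. The members were covered by 585 of the 233164 probes that were not controls, and all 86 members were measured.

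The cells were MDA-MB-231, an established triple negative breast cancer line with mesenchymal features, and their RNA was hybridised to 12 one-color exon arrays, with 4 groups of 3. All groups carried an oligonucleotide at 5 nM and an siRNA at 500 pM, with 72 h of silencing. Control cells (cntrl) had the control of both, mimic145 cells the miR-145-5p mimic with the control siRNA, sirnaAGO2 cells an siRNA against AGO2 with the control oligonucleotide, and sirnaAGO2+mimic145 cells the mimic and the siRNA. Ago2 is the Argonaute protein that can cut a target mRNA, and the design asks which effects of the microRNA need it. Silencing is partial and transient, and a mimic delivers more of the microRNA than a cell would make.

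A ribosome holds 1 copy of nearly every one of these proteins, so cells keep the supply of the large and small subunit proteins in balance. Their mRNAs typically begin with a C and a run of pyrimidines, the 5′ terminal oligopyrimidine (TOP) tract, through which mTORC1 and the protein LARP1 control their translation and storage as a group. A few members have paralogs that are used in particular tissues, such as RPL39L and RPL10L in the testis and RPL3L in muscle, and RPL22L1 replaces RPL22 in some cells. Others have tasks away from the ribosome, such as RPL5 and RPL11, which bind MDM2 and stabilise p53.

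The microRNA that was delivered is shown first, with the start regions of some members, since the tract there is a feature these genes are known to share. RPL22, RPS27 and RPS27L among them passed no adjusted test below, and some members that did pass are not shown. The mature sequence of miR-145-5p (chr5:149430661-149430683, plus strand, GRCh38.p14) is given 5′ to 3′ with its seed, bases 2 to 8, in capitals. In the start windows, 5 bases before and 20 bases from the annotated first base of the transcript are shown for RPL22L1 (chr3:170870176-170870200, minus strand), its parent RPL22 (chr1:6199576-6199600, minus), RPL21 (chr13:27251553-27251577, plus), RPL26 (chr17:8383174-8383198, minus), RPL39 (chrX:119791611-119791635, minus), RPSA (chr3:39406715-39406739, plus), RPS15 (chr19:1438391-1438415, plus), RPS27 (chr1:153990757-153990781, plus) and its paralog RPS27L (chr15:63157458-63157482, minus). Capitals mark a tract, that is a C at the first base followed by at least 4 bases that are each C or T, read on the strand of the gene only. All sequences are RefSeq's for GRCh38.p14.
miR-145-5p: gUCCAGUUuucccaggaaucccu
RPL22L1: gcttcCTCTCTgctctcgcggccga
RPL22: acctcCCTTTCTaactccgctgccg
RPL21: tctttCCTTTCggccggaaccgcca
RPL26: tagttCTCTTCCCTTTTgcggccat
RPL39: agcttCCCTCCTCTTCCTTTCTCCg
RPSA: cctgtCTTTTCCgtgctacctgcag
RPS15: cggaccaaagcgatctcttctgagg
RPS27: tcgctCCTTTCCggcggtgacgacc
RPS27L: cgagcgcagatcgcttgcagcttgc

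Of the 69 members matched in the table of start regions, 48 (69.6%) held a tract at an annotated start, against 5.14% of the 27305 genes in the table. The tracts ran from 5 to 19 bases, with a median of 8, and the longest was that of RPL39. The 21 members with no tract at a listed start included RPS15 and RPS27L above, and also RPL36AL, RPL26L1, RPL7L1 and RPL10L among the paralogs, whereas RPL22L1 held one of 6 bases. The 17 members not matched included RPL37, RPL39L, RPL23A, RPL8, RPL3L and RPL5. A match is a description of the annotated start and not of the start used in these cells.

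Expression values are log2 of the Feature Extraction processed signal after quantile normalization over the 12 arrays, averaged over the probes of a gene, so a difference of 1 is a doubling of the signal. The share of spots well above background ranged from 60.5% to 77.3% among arrays, lower with the mimic than without it on 5 of the 6 slides, and no spot was saturated. AGO2 itself was lower after silencing, at 8.35, 8.44 and 8.42 in sirnaAGO2 against 9.21, 9.14 and 9.01 in cntrl, a log2 difference of -0.71 ± 0.0761 (SE, n = 3 arrays per group, limma adjusted p = 0.00494). With the mimic present the difference was -1.06 ± 0.0761 (limma adjusted p = 0.00079), and AGO2 was higher with the mimic in control cells, by 0.28 ± 0.0761 (limma adjusted p = 0.0299). The mesenchymal markers VIM, CD44, CAV1 and AXL were well above background, and 0 of 9 probes of the progesterone receptor PGR were, whereas GATA3 and some probes of ESR1, CDH1 and ERBB3 were also detected. Each slide held a pair of the same replicate number, with and without the mimic in the same arm, and the mimic was always in the same position, so that position and mimic cannot be told apart. The differences within a replicate pair given for the mimic are therefore differences within a slide, and those for silencing are between slides.

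Of the members' probes, 573 of 585 passed the filter on dim probes, as did all 86 genes, among 18252 genes tested. All but RPL3L, a paralog of muscle, were in the brightest 10% of genes by signal, which depends on probe sequence and is no measure of transcript number. The spread left after groups and replicates were fitted had a median SD of 0.0711 for the members, against 0.124 for all genes. Bright genes shared part of this: the median SE of a difference was 0.072 for members, 0.0846 for the brightest 10% and 0.099 for all genes. Changes of ribosomal protein transcripts were small in all comparisons: 75 of the 86 members differed by under 0.2 on the log2 scale between mimic145 and cntrl (87.2%, against 56.5% of all genes), and 65 between sirnaAGO2+mimic145 and mimic145 (75.6%, against 70.4%).

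**Figure D1:**
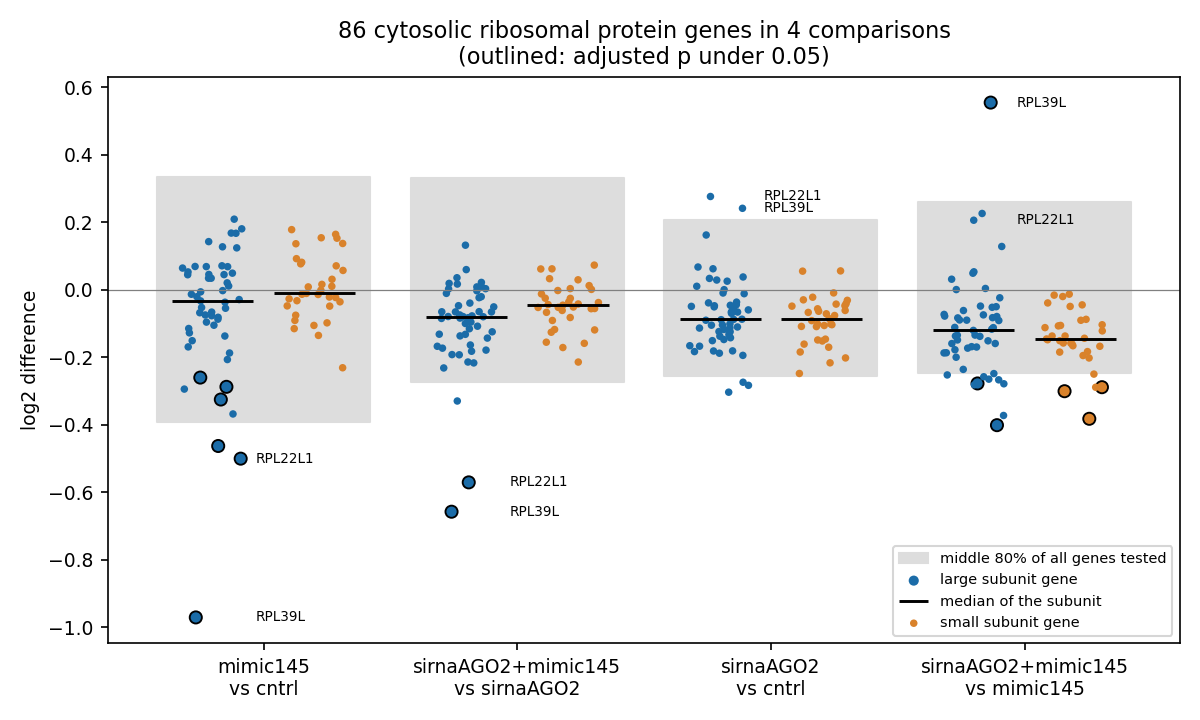
Log2 difference (vertical axis) of each of the 86 ribosomal protein genes in 4 comparisons (horizontal axis), for large and small subunit genes, with outlined points for an adjusted p under 0.05, horizontal lines for the median of each subunit and grey bands for the middle 80% of all 18252 genes. Most members lie inside the band in every comparison, and RPL39L lies below it with the mimic in both arms, at -0.97 and -0.66.

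With the miR-145-5p mimic in control cells, 6 ribosomal protein genes were lower and 0 were higher by limma (adjusted p under 0.05), that is 6 of 86, where 22.5% of all genes tested passed, 11% as lower and 11.6% as higher. All 6 encode large subunit proteins: RPL39L, RPL22L1, RPL21, RPL37, RPL39 and RPL26. At an unadjusted p under 0.05 there were 14 members, or 16.3% against 35.4% of all genes. The median over the members was -0.018, beside 0.012 over all genes, and 50 of 86 estimates were under 0, against 47.8% of all genes. Without the replicate number as a block, 3 members passed, and the count was also 3 when any cntrl array, or mimic145 replicate 2 or 3, was left out. In these bulk cultures, less of an RNA in every cell and fewer cells that carry it cannot be told apart.

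RPL39L, the paralog of the exit tunnel protein RPL39, had the largest difference of any member. Its values were 11.39, 11.46 and 11.43 in cntrl and 10.45, 10.64 and 10.27 in mimic145. All control arrays lay above all mimic arrays. The log2 difference was -0.97 ± 0.116 (SE, n = 3 per group, limma adjusted p = 0.000765), or 51.0% of the control signal, with pairs at -0.93, -0.82 and -1.16. Its 3 probes gave -1.02 to -0.93, so that no single probe carried the value. The exact permutation test of the 6 arrays gave p = 0.1, the smallest that 3 against 3 allows, here and for every other member whose groups did not overlap.

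RPL22L1 pairs with RPL22, an RNA-binding protein of the large subunit that also represses RPL22L1 expression in some cells. It was measured at 10.55, 10.73 and 11.05 in cntrl and at 10.36, 10.18 and 10.30 in mimic145. The groups did not overlap, although replicate 1 moved least, with pairs at -0.20, -0.55 and -0.75. The difference was -0.50 ± 0.138 (SE, n = 3, limma adjusted p = 0.0302), and all 5 probes were lower, from -0.97 to -0.07. RPL22 itself was at -0.21 ± 0.0778 and did not pass (limma adjusted p = 0.0890), with 3 of its 6 probes lower.

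The other members that passed are core proteins of the large subunit. RPL21, near the central protuberance, was at 14.41, 14.30 and 14.47 in cntrl and 13.99, 13.89 and 13.91 in mimic145. It differed by -0.46 ± 0.0730 (SE, n = 3, limma adjusted p = 0.00248), and its groups did not overlap. All 13 of its probes were lower, by -1.10 to -0.12, and RefSeq names 137 pseudogenes after it, 40 after RPL39, 36 after RPL26 and 25 after RPL37. Whether probes also bound pseudogene transcripts was not tested for any member.

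RPL37, a small rRNA-binding protein, was at 14.18, 14.14 and 14.34 in cntrl and 13.81, 13.90 and 13.98 in mimic145. The difference was -0.33 ± 0.0628 (SE, n = 3, limma adjusted p = 0.00655), with all 5 probes lower and no overlap between groups. RPL39, one of the smallest ribosomal proteins, fell from 14.84, 14.79 and 15.16 to 14.66, 14.63 and 14.64, by 0.29 ± 0.0844 on the log2 scale (SE, n = 3, limma adjusted p = 0.0382). Replicate 3 of cntrl stood highest, and its pair, at -0.52, was the largest of the 3. RPL26, an exit tunnel protein known to bind p53 mRNA, was at 14.33, 14.31 and 14.64 in cntrl and 14.08, 14.02 and 14.41 in mimic145. Here replicate 3 was the high array in both groups and the groups overlapped, while the pairs were close, at -0.25, -0.29 and -0.24, for a difference of -0.26 ± 0.0748 (limma adjusted p = 0.0353). With 1 of the 12 arrays left out at a time, the call was lost in 9 cases for RPL39, 8 for RPL26, 5 for RPL22L1 and 0 for RPL39L, RPL21 and RPL37.

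**Figure D2:**
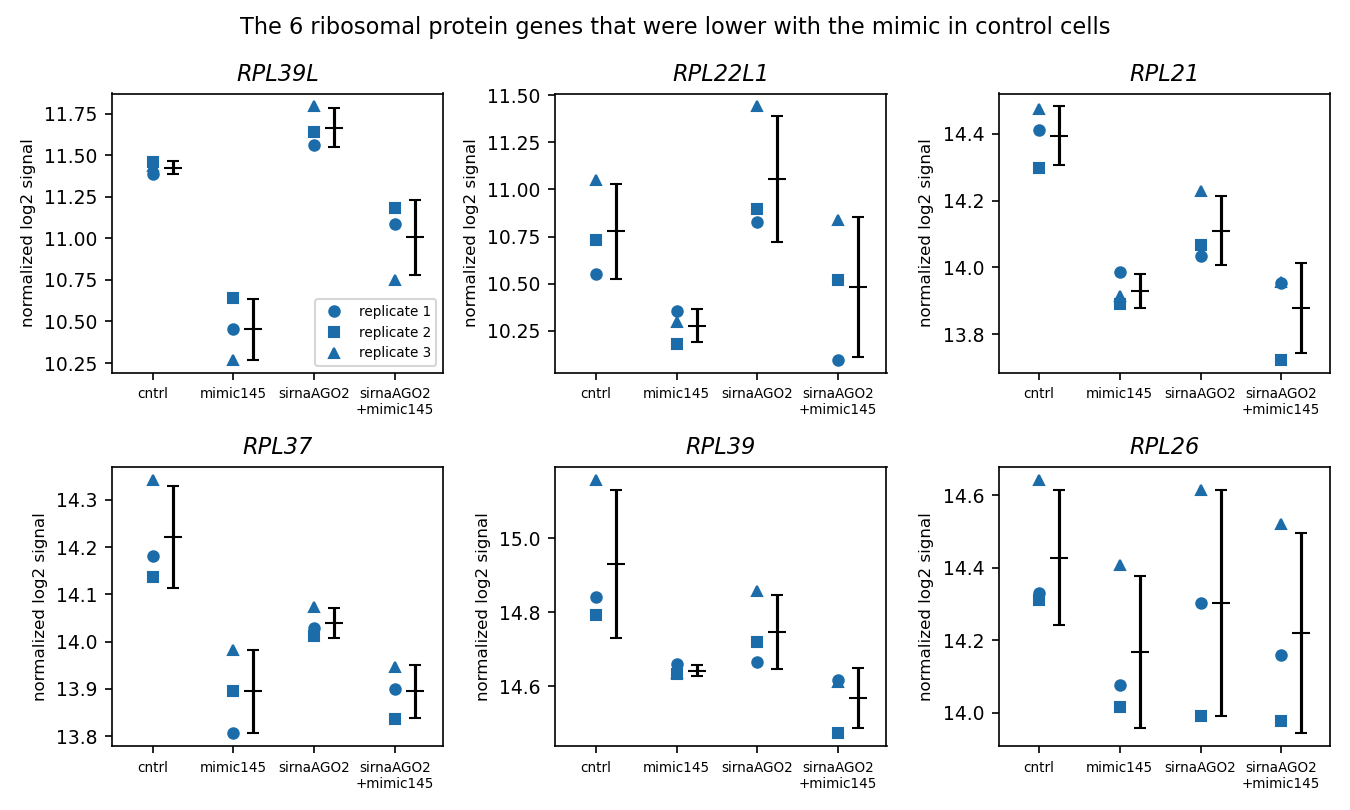
Normalized log2 signal (vertical axes, not starting at 0) of the 6 members lower with the mimic in control cells, on each array of the 4 groups (horizontal axes), with a symbol for each replicate number and the mean with its SD beside the points. RPL39L lies between 11.39 and 11.46 in cntrl and between 10.27 and 10.64 in mimic145, whereas the cntrl and mimic145 points of RPL26 overlap.

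At the other end, RPL8 was the member with the highest estimate, 0.21 ± 0.0667, and it did not pass (limma adjusted p = 0.0532). The small subunit had no member that passed; its estimates ran from -0.23 to 0.18, and 32 of its 33 genes stayed within 0.2. The groups did not overlap for 8 members, 6 lower and 2 higher, against 28.4% of all genes, 13.5% lower and 14.9% higher. Among members with tasks outside the ribosome, RPL5 was at 0.05 ± 0.0702 and RPL11 at -0.09 ± 0.0737, and RPS6, the substrate of S6 kinase, at -0.01 ± 0.0806. The stalk proteins RPLP0, RPLP1 and RPLP2, which recruit translation factors, lay between -0.07 and -0.01. RPS3, a DNA repair protein in other settings, was at -0.08 ± 0.0763, RPL10A at -0.02 ± 0.0722, RPSA, also known as the laminin receptor precursor, at -0.10 ± 0.0701, and RPS27A and FAU, made as fusions with ubiquitin and a ubiquitin-like protein, at 0.03 ± 0.0812 and 0.08 ± 0.0685. None of these passed (limma adjusted p from 0.352 to 0.923).

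In cells with AGO2 silenced, the mimic was accompanied by lower signal of 2 members, RPL39L and RPL22L1, and higher signal of 0, where limma called 7.28% of all genes at an adjusted p under 0.05 and 3.03% as lower. These are also members that passed in control cells. RPL39L was at 11.56, 11.64 and 11.79 in sirnaAGO2 and at 11.09, 11.18 and 10.75 in sirnaAGO2+mimic145, with no overlap. The difference was -0.66 ± 0.116 (SE, n = 3, limma adjusted p = 0.0194), or 63.4% of the signal without the mimic. Replicate 3 had the widest pair, at -1.04, beside -0.48 and -0.46.

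RPL22L1 was at 10.83, 10.89 and 11.44 in sirnaAGO2 and 10.10, 10.52 and 10.84 in sirnaAGO2+mimic145. The groups overlapped by 1 array, replicate 3 with the mimic, but all pairs fell, by 0.73, 0.38 and 0.60 on the log2 scale. The difference was -0.57 ± 0.138 (SE, n = 3, limma adjusted p = 0.0429), and all 5 probes were lower. Both calls depend on the pairing, since 0 members passed without the replicate block, and both were lost when sirnaAGO2 replicate 2 or replicate 3, or sirnaAGO2+mimic145 replicate 2 or replicate 3, was left out.

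Over all members the median in silenced cells was -0.066, beside 0.020 for all genes and -0.026 for the brightest 10% of genes. Estimates were under 0 for 68 of 86 members, against 45.9% of all genes, and 7 members passed an unadjusted p under 0.05 (8.14%, against 28.8%). Among the brightest 10%, 1046 of 1826 estimates were under 0 and 20.1% of genes passed an unadjusted p under 0.05. The groups did not overlap for 9 members, all lower, against 24.1% of all genes in either direction and 10.2% lower. RPL21, RPL37 and RPL39 were among these 9, with RPL31, RPSA, RPL23A, RPS15 and RPL23. RPL31, a protein beside the tunnel exit, had the third lowest estimate at -0.33, and the others named were between -0.23 and -0.08, and RPL26 was at -0.08 ± 0.0748. Apart from RPL39L and RPL22L1, none of them passed the adjusted test.

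The difference between the mimic effects with and without silencing was tested directly, and 0 members passed by limma at an adjusted p under 0.05, as did 2 of all 18252 genes (0.011%). At an unadjusted p under 0.05 there were 5 members (5.81%, against 16.7% of all genes), and the methods' paired t-test gave 8 before adjustment, against 10.4% of all genes, and 0 after it. RPL39L differed by 0.31 ± 0.164 between arms and RPL22L1 by -0.07 ± 0.195 (limma adjusted p = 0.368 and 0.880), and RPL21 by 0.23. The 95% interval of the RPL22L1 difference ran from -0.51 to 0.37, so that a loss or gain of most of its effect in control cells was not excluded. RPL3L had the highest estimate, 0.50 ± 0.208 (limma adjusted p = 0.276); it was listed at -0.37 with the mimic in control cells and 0.13 in silenced cells. The median difference over members was -0.053 after quantile normalization and 0.014 after scaling to the 75th percentile, where the median of all genes was 0.020 and 0.071, so that the members' median was below that of all genes under both scalings.

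The paralogs were then set beside their parent genes. The RPL39L and RPL22L1 differences were over 2 times the size of those of RPL39 and RPL22 in both arms. The remaining 6 paralogs gave no call in any comparison. With the mimic in control cells RPL3L was at -0.37 ± 0.147 and RPL3 at -0.08 ± 0.0599, RPL7L1 at -0.12 ± 0.0871 and RPL7 at 0.01 ± 0.102, and RPL26L1 at 0.06 ± 0.0805, where RPL26 had passed as lower. RPL36AL, a copy of RPL36A, RPL10L, measured by 1 of its 3 probes, and RPS27L, a p53-induced copy of RPS27, were at 0.07, 0.17 and -0.05, and RPL36A, RPL10 and RPS27 at -0.03, 0.04 and 0.01. A paralog and its parent may share hybridization if probes of one bind transcripts of the other, and this was not tested for any pair. That holds for RPL39L and RPL39, and for RPL10L, whose 1 kept probe had a cntrl mean of 14.21.

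**Figure D3:**
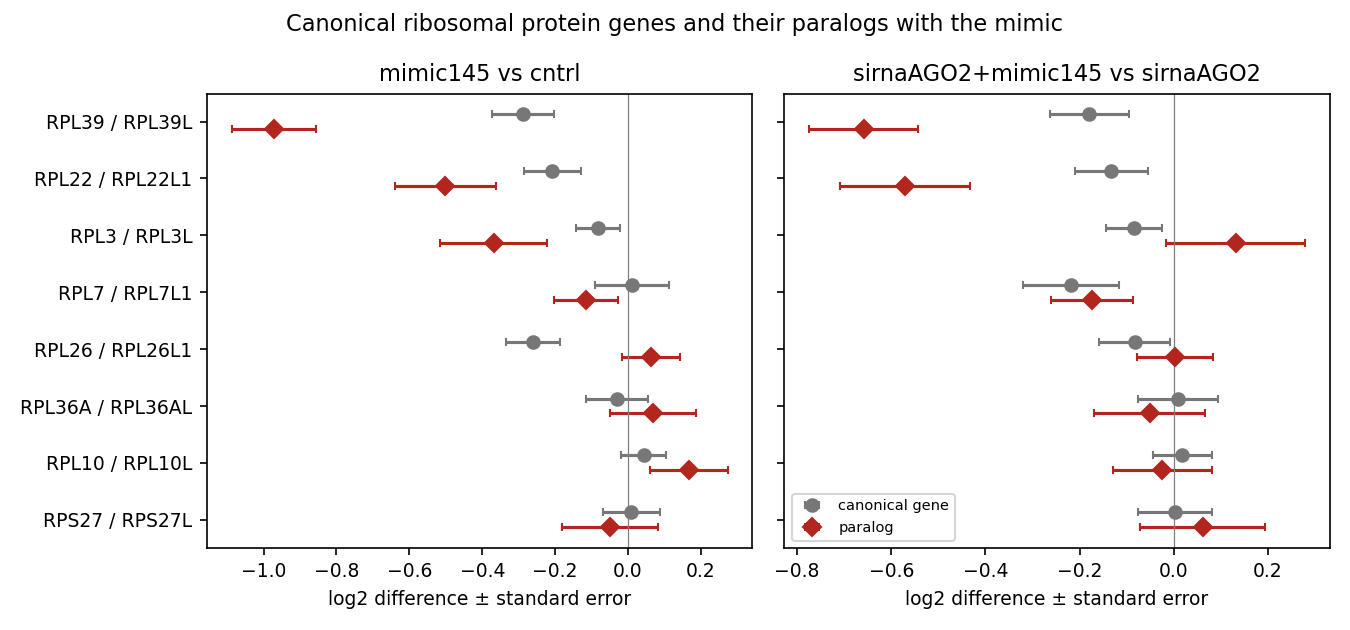
Log2 difference with its standard error (horizontal axes) between cells with and without the mimic, for 8 ribosomal protein genes and their paralogs (vertical axis), in control cells (left) and AGO2-silenced cells (right). RPL39L and RPL22L1 lie furthest to the left in both panels, at -0.97 and -0.50 and at -0.66 and -0.57, and RPL3L lies on opposite sides of 0.

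Silencing of AGO2 alone gave 0 members that passed by limma, where 2.58% of all genes did, and 15 members at an unadjusted p under 0.05 (17.4%, against 19% of all genes). The methods' paired t-test gave 16 before adjustment, against 17.4% of all genes, and 0 after it. Most estimates were nevertheless low: 74 of 86 were under 0, against 57.4% of all genes, with a median of -0.088 beside -0.033 for all genes. The groups did not overlap for 11 members, 10 of them lower, against 19.1% of all genes and 10.6% lower. RPL36A was lowest at -0.30 ± 0.0846 (limma adjusted p = 0.0993). RPL22L1 and RPL39L were the members with the highest estimates, 0.28 ± 0.138 and 0.24 ± 0.116 (adjusted p = 0.318 and 0.303), and RPL21 was at -0.28.

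The comparison of silenced with unsilenced cells in the presence of the mimic gave the widest shift of the family. By limma, 5 members were lower and 1 was higher at an adjusted p under 0.05, 6 of 86 where 4.31% of all genes passed, 2.44% as lower and 1.86% as higher. The count was 0 to 5 with 1 array left out, and 0 without mimic145 replicate 1 or 3 or sirnaAGO2+mimic145 replicate 1. Estimates were under 0 for 78 of 86 members, including all 33 of the small subunit, against 49.8% of all genes, and the median was -0.138, beside 0.001 for all genes and -0.040 for the brightest 10%. The median over the members was -0.14, -0.17 and -0.09 in the 3 replicate pairs. At an unadjusted p under 0.05 there were 30 members (34.9%, against 21.5%), and the groups did not overlap for 21, of which 20 were lower, against 14.8% of all genes and 8.56% lower. Nearly all members are in the brightest 10% of genes, of which 6.46% passed limma's adjusted test, beside 6.98% of members. Of those 1826 bright genes, 27.8% had an unadjusted p under 0.05 and 1068 had estimates under 0. Since arms lay on different slides, slide and silencing cannot be told apart within a pair, and with the slide as a random block 0 members passed, as without the replicate block.

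RPL8, a core protein of the large subunit near the peptidyl transferase centre, was at 13.01, 12.93 and 13.12 in mimic145 and 12.60, 12.63 and 12.64 in sirnaAGO2+mimic145. It differed by -0.40 ± 0.0667 (SE, n = 3, limma adjusted p = 0.0168), or 75.7% of the signal in mimic145, with all 7 probes lower. Every array without silencing lay above every array with it, and the gap between the groups was wider than the range within either.

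RPSA was at 14.12, 14.08 and 14.11 in mimic145 and 13.69, 13.77 and 13.93 in sirnaAGO2+mimic145. RPS15, a protein of the head of the small subunit, was at 15.24, 15.17 and 15.12 against 14.93, 14.94 and 14.79. RPL23A, a docking site for factors at the tunnel exit, was at 14.82, 14.70 and 14.74 against 14.54, 14.41 and 14.46; it was not among the genes named by rule and was chosen after its values were seen. The groups did not overlap for any of the 3. Their differences were -0.30 ± 0.0701, -0.29 ± 0.0673 and -0.28 ± 0.0638 (SE, n = 3, limma adjusted p = 0.0482, 0.0482 and 0.0458). With 1 of the 12 arrays left out at a time, RPSA lost its call in all 12 cases, RPS15 and RPL23A in 11, and RPL8 in 4. RefSeq names 95 pseudogenes after RPL23A and 74 after RPSA.

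RPL39L went the other way, from 10.45, 10.64 and 10.27 in mimic145 to 11.09, 11.18 and 10.75 in sirnaAGO2+mimic145, higher by 0.55 ± 0.116 (SE, n = 3, limma adjusted p = 0.0350), a call lost in 9 of the 12 cases. The mimic145 arrays enter this comparison and the one with cntrl, so the values are not independent. All groups of RPL39L were apart, with the order sirnaAGO2, cntrl, sirnaAGO2+mimic145 and mimic145 from high to low, and the step from cntrl to sirnaAGO2 did not pass. Of the stalk proteins, RPLP0 and RPLP1 were at -0.19 ± 0.0714 and -0.17 ± 0.0742 with silencing in the presence of the mimic and did not pass (limma adjusted p = 0.172 and 0.217), and RPLP2 was at -0.06 ± 0.0652.

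**Figure D4:**
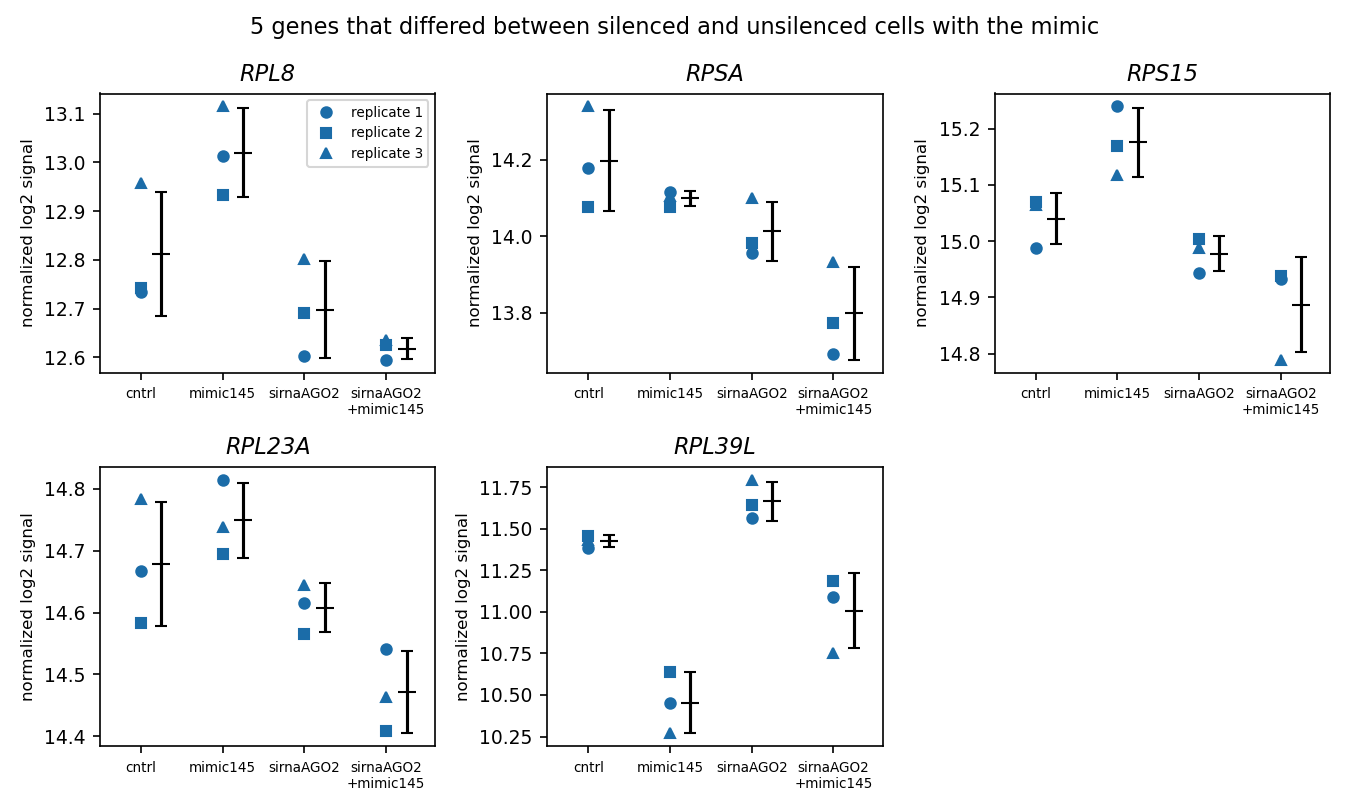
Normalized log2 signal (vertical axes, not starting at 0) of 5 members that differed between sirnaAGO2+mimic145 and mimic145, on each array of the 4 groups (horizontal axes), with a symbol for each replicate number and the mean with its SD beside the points. RPL8 lies between 12.93 and 13.12 in mimic145 and between 12.60 and 12.64 in sirnaAGO2+mimic145, and of these 5 only RPL39L is higher in the latter.

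For 5 members, among them RPL8, RPS15, RPS10 and RPL29, the signal was higher with the mimic in all 3 pairs of control cells and lower in all 3 pairs of silenced cells, which is 5.81% of members and 1.54% of all genes. RPL8, for example, was at 0.28, 0.19 and 0.16 in the pairs of control cells and -0.01, -0.07 and -0.17 in those of silenced cells. The opposite pattern was seen for 0 members and 295 of the 18252 genes. The difference between arms did not pass for any of the 5 (limma adjusted p from 0.195 to 0.432).

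Large and small subunit genes were compared as groups, as a description without a test, since genes are not replicates. The median difference of the large subunit minus that of the small was -0.02 ± 0.0142 (SD over 3 replicate pairs) for the mimic in control cells, -0.03 ± 0.0229 in silenced cells, 0.02 ± 0.0198 for silencing alone and 0.04 ± 0.0112 for silencing with the mimic. The subunits moved to within 0.05 of each other in every comparison by this mean, and without the 8 paralogs the values were -0.03, -0.03, 0.01 and 0.02. Calls with the mimic were all of large subunit genes, 6 of 53 (11.3%) in control cells and 2 of 53 (3.77%) in silenced cells. Of all genes 22.5% and 7.28% passed, so neither subunit was called more often than genes at large. RPSA and RPS15 of the small subunit were among the 5 lower with silencing and the mimic, against 2.44% of all genes lower.

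Between arrays of one group the spread was wider than between subunits. Relative to the mean of each gene over the 12 arrays, the large subunit genes had a median deviation of 0.05, -0.04 and 0.23 in cntrl, 0.02, -0.03 and 0.13 in mimic145, -0.06, -0.06 and 0.08 in sirnaAGO2 and -0.11, -0.18 and 0.02 in sirnaAGO2+mimic145. The small subunit genes had 0.03, -0.03 and 0.21, then 0.06, 0.01 and 0.10, then -0.08, -0.05 and 0.07, and -0.09, -0.19 and 0.02 in the same order. Replicate 3 was the high array in every group for both subunits, and the sirnaAGO2+mimic145 array was the lowest of each replicate number. The share of spots well above background was also highest in replicate 3 of each group, from 70.8% to 77.3%; its part in the members' level was not tested.

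**Figure D5:**
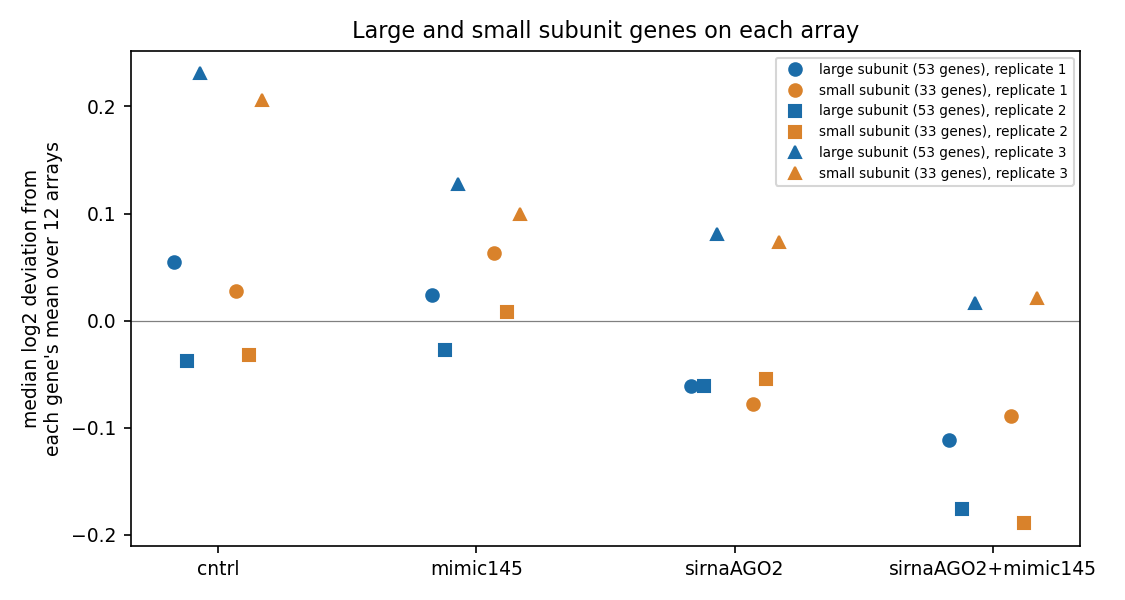
Median log2 deviation from each gene's mean over the 12 arrays (vertical axis) of the 53 large and 33 small subunit genes on each array, by group (horizontal axis) and replicate number (symbols). The subunits follow each other on every array, from -0.18 and -0.19 in sirnaAGO2+mimic145 replicate 2 to 0.23 and 0.21 in cntrl replicate 3.

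Members with and without a tract at the start were described in the same way. With the mimic in control cells the median was -0.031 over the 48 members with a tract, of which 4 passed, and 0.020 over the 21 matched members without one, of which 0 passed, where 22.5% of all genes did. The 17 members not matched had a median of 0.011, and 2 of them passed. In silenced cells the medians were -0.071 and -0.052, for silencing alone -0.090 and -0.067, and for silencing with the mimic -0.129 and -0.144. No order held in all 4 comparisons.

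Other genes of the translation apparatus were counted from 4 lists. Of 15 other transcripts known for a TOP tract or for binding the ribosome, 6 were lower and 1 higher with the mimic in control cells by limma, where 11% of all genes were lower and 11.6% higher. The lowest were NAP1L1, a nucleosome assembly protein, at -0.59 ± 0.0849 (adjusted p = 0.00168), and the initiation factor EIF4B at -0.44 ± 0.0759 (adjusted p = 0.00404). EEF1A1, EEF1G and TPT1 were also among those lower, and EEF1B2 was higher. In silenced cells NAP1L1 alone passed, at -0.33 ± 0.0849 (adjusted p = 0.0495), and with silencing in the presence of the mimic the initiation factor EIF3H alone, at -0.30 ± 0.0620 (adjusted p = 0.0327), where 7.28% and 4.31% of all genes passed.

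Of 36 genes of ribosome assembly and RNA polymerase I, 13 were higher and 2 lower with the mimic in control cells by limma, against 11.6% and 11% of all genes, with a median of 0.187 beside 0.012 over all genes. BYSL, needed for small subunit maturation, was at 0.76 ± 0.0664 (adjusted p = 0.000211), and RRS1, a large subunit assembly factor measured by 1 probe, at 0.77 ± 0.0943 (adjusted p = 0.000823). NCL and NOLC1, nucleolar proteins, were lower. In silenced cells 1 of the 36 passed, NOLC1 as lower (3.03% of all genes were), with a median of -0.069, and 0 passed the test of the difference between the arms, where the median was -0.274. With silencing alone 1 passed, BYSL as higher at 0.31 ± 0.0664 (limma adjusted p = 0.0476), where 2.58% of all genes passed. With silencing in the presence of the mimic 5 passed as lower, against 2.44% of all genes, among them RRS1 at -0.48 ± 0.0943 and NHP2 at -0.42 ± 0.0657 (adjusted p = 0.0296 and 0.0150).

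Of 15 genes of mTORC1, LARP1 and S6 kinase, 0 passed with the mimic in control cells and 1 in silenced cells, LARP4 at -0.44 ± 0.0921 by limma (adjusted p = 0.0305), where 22.5% and 7.28% of all genes passed. Of 10 p53 targets, ZMAT3 and the cell cycle inhibitor CDKN1A were higher with the mimic in control cells, at 0.39 ± 0.0778 and 0.32 ± 0.0866 (adjusted p = 0.00769 and 0.0286), and TP53I3 was lower, where 11.6% of all genes were higher and 11% lower. The MDA-MB-231 line carries mutant p53. In silenced cells 1 of the 10 passed, ZMAT3 as higher at 0.36 ± 0.0778 (adjusted p = 0.0340), against 7.28% of all genes. With silencing in the presence of the mimic 1 passed, CDKN1A as lower at -0.44 ± 0.0866 (adjusted p = 0.0291), against 2.44% of all genes lower.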

How the data were processed

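RNA from MDA-MB-231 cells was profiled on 12 one-color Agilent human exon arrays, whose titles give the group and the replicate. The files deposited per array hold the processed signal of Feature Extraction, an intensity from which background was already removed but which was not yet scaled among arrays. A series-wide table of log2 values was deposited as well; by the paper's methods signals in it were raised to at least 1 and quantile normalized, and it served as an alternative.

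Outlier spots were left out, and the processed signals were quantile normalized and log2 transformed. A probe was kept if it was well above background on all 3 arrays of a group. Of 233164 probes, 89.9% were assigned to a gene through their transcript accession and RefSeq, and the kept probes of a gene were averaged. A model of the 4 groups, blocked on replicate, was fitted to 18252 genes with limma 3.58.1 (lmFit and eBayes, R 4.3.3). Tests were two-sided and p-values were adjusted by Benjamini-Hochberg within each comparison, across every gene tested. The pairing follows the paired test of the paper's methods; deviations from group means correlated at 0.139 to 0.577 between arrays of the same replicate number and at -0.495 to 0.201 otherwise. Single genes were also compared by exact permutation tests. The labels do not say whether replicates were separate cultures, so p-values measure the spread between these arrays, and the number of arrays limits the precision.

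Named were, in each comparison, up to 4 members with the largest rise and fall among those that passed with at least 3 kept probes and the same sign in all pairs, the paralogs and their parents, members with known other roles, AGO2, and the 2 largest changes of each list. The members, the lists and the rule were chosen with earlier results of these data known. Some genes enter the counts but are not reported by name here. The methods were tested on simulated data. With all members raised by 0.5 in simulated mimic145 arrays and no other gene changed, 67.4% of them passed against cntrl. With a rise of 0.25 it was 0%, so in that setting a small shift of the whole family went uncalled. In the real comparison 22.5% of all genes passed, which makes the adjusted threshold less strict, and RPL26 passed at -0.26. The simulated shares therefore do not give the power of the reported test. Alternatives were other scalings, background correction, filters, summaries, blocks and tests, and leaving out replicates and arrays.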

Additional observations from a re-analysis of the deposited data

Results flagged for a closer look

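RPL8, RPS15, RPS10 and RPL29 stood out because the mimic went with higher signal in all 3 replicate pairs of control cells and lower signal in all 3 pairs of AGO2-silenced cells. The mimic effect in silenced cells minus that in control cells was -0.288 ± 0.0944 for RPL8, -0.227 ± 0.0952 for RPS15, -0.214 ± 0.0955 for RPS10 and -0.19 ± 0.116 for RPL29 (SE, n = 3 pairs per arm). None of them passed limma's test of the difference, with adjusted p of 0.195, 0.279, 0.302 and 0.432.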

How the results depend on the processing

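No member that passed changed direction under any alternative run. The count of members changed by the mimic in control cells (6) was 10 with 75th percentile scaling, 3 with no replicate block, 2 when the fit held no arrays of other groups, and 10 before and 0 after adjustment of the methods' t-test, paired over replicates; leaving out a replicate number or an array gave 2 to 6, the lowest without replicate 3. With normexp and an offset of 50 there were 9 (3 higher, 6 lower), against 0 higher and 6 lower as reported. In silenced cells the count (2) was 4 with 75th percentile scaling, 6 with normexp, 4 with the authors' log2 table, 1 with probes kept if detected over background on each of the 12 arrays, with the median over probes or with the slide as a random block, 0 with no replicate block or no arrays of other groups, 15 before and 0 after adjustment of the t-test, and 0 to 2 with arrays left out. For silencing alone (0) it was 4 with 75th percentile scaling, 2 with normexp, 1 with that stricter filter, the median over probes or an intensity trend, 16 by the unadjusted t-test, and 0 without any array. For silencing with the mimic (6) it was 12 with normexp, 3 with no filter on dim probes, 1 with the median over probes, 0 with no replicate block, the slide block or no arrays of other groups, 20 before and 0 after adjustment of the t-test, and 0 to 5 with arrays left out. For the difference of the mimic effects (0) it was 8 by the unadjusted t-test and 0 otherwise. The cause of these shifts was not tested, except that fits to fewer arrays have fewer degrees of freedom. Of these alternatives, the unadjusted t-test has a share of all genes given for silencing alone (17.4%) and the difference of effects (10.4%). For the rest no share is given, so their counts are not read as an effect on the members.

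Leaving out 1 of the 12 arrays at a time, RPL39L, RPL21 and RPL37 kept their calls with the mimic in control cells each time (adjusted p at most 0.00557, 0.0137 and 0.0377). RPL22L1 lost its call without any cntrl array or without mimic145 replicate 2 or 3 (adjusted p up to 0.0999), RPL39 in 9 of the 12 (up to 0.132) and RPL26 in 8 (up to 0.140). Without cntrl replicate 1, 2 or 3, or mimic145 replicate 2 or 3, the count with the mimic was 3. In silenced cells RPL39L lost its call in 4 and RPL22L1 in 10 (up to 0.0792 and 0.160). With silencing in the presence of the mimic RPL8 lost its call without replicate 1 or 3 of either group (up to 0.0828), RPL39L in 9, RPL23A and RPS15 in 11 and RPSA in all 12, and the count was 0 without mimic145 replicate 1 or 3 or sirnaAGO2+mimic145 replicate 1.

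Large minus small subunit medians moved with the median over probes, to -0.0435 and -0.0693 for the mimic in control and silenced cells, to 0.0186 for silencing with the mimic and to -0.0207 for the difference of effects. They were 0.027 with normexp for silencing with the mimic and -0.00417 with the authors' table for silencing alone.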
